A study of Mus musculus with 11 samples.

Results

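The genes described here encode the enzymes, regulators and transporters of cholesterol, fatty acid and ceramide synthesis. They are 38 genes listed by name, each matched by its Ensembl identifier to 1 gene of the 52550 in the table, and 37 of them were among the 14419 genes with enough reads to be tested (CPM, which is reads scaled to a common library total, above 1 in at least 2 of the 11 libraries). Elovl3, an elongase of sebaceous gland and brown fat, was the member that did not pass. Epidermal keratinocytes (KCs) and dendritic epidermal T cells (DETCs, the γ/δ T cells that reside in mouse epidermis) were sorted from flank skin of 8-week-old mice and their poly-A RNA was sequenced. LC-/- mice carried huLangerin-DTA, in which the human langerin promoter drives the diphtheria toxin A subunit, and lacked Langerhans cells (LCs) from birth. The controls were their wild-type (WT) littermates, and all libraries were labelled female. KCs were sorted as live cells negative for MHC-II, CD45, langerin and c-kit, and DETCs with the same gate but positive for CD45. There were 3 WT and 3 LC-/- libraries of KCs and 3 WT and 2 LC-/- libraries of DETCs, named W1 to W3 and L1 to L3 after the order of the numbers in their labels, with L1 present only among the KCs.

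Cholesterol is built from acetyl-CoA through mevalonate, farnesyl diphosphate, squalene and lanosterol, and the genes of this route are switched on together by the transcription factor SREBP2 when membrane sterol falls. Fatty acids are made as palmitate, then lengthened by ELOVL elongases and given double bonds by SCD and FADS desaturases. Ceramides join a sphingoid base to a fatty acid. They are turned into glucosylceramide by UGCG or into sphingomyelin by the SGMS enzymes, and both serve as precursors of the ceramides of the outer skin barrier. Keratinocytes of the upper epidermis load these lipids into lamellar granules with the transporter ABCA12, and loss of CERS3, ELOVL4, ELOVL1 or ABCA12 is known to break the barrier.

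The libraries held 13491075 to 19750440 reads. Values are counts divided by the size factor of the library, called normalized counts, and 3 reads corresponded to a normalized count of 2.48 to 3.32. Summed normalized counts of 12 DETC marker genes were 229547 to 252831 in the DETC libraries and 11.2 to 47.3 in the KC libraries. Cd207, which encodes langerin, was at 6.15 to 26.9 in WT KCs and 16.5 to 46.7 in WT DETCs, and in LC-/- at 0 in all 3 KC libraries and in DETC L2 and at 4.42 in DETC L3. The 12 Langerhans cell markers nevertheless summed to 6301 to 6906 in WT KCs and 9673 to 10242 in LC-/- KCs, most of it Epcam, which keratinocytes also express (5799 to 6564 and 9484 to 9970). The 24 keratinocyte markers were also found in the DETC libraries, where the median marker reached 15.3% (W1), 15.7% (W2) and 18.1% (W3) of its KC mean in WT and 24.3% (L2) and 16.0% (L3) in LC-/-. This percentage is called the keratinocyte share, and it was highest in the LC-/- library L2. Single markers ranged from 5.22% to 61.2% of their KC mean over the 5 libraries, so the share is a rough measure. In bulk RNA of sorted cells, fewer cells of a type and less RNA per cell cannot be told apart. Sebaceous gland markers were low, with 10 genes summing to 125 to 232 in KCs and 82.9 to 445 in DETCs.

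The lipid genes, like the tested genes as a whole, separated the 2 populations more than the 2 genotypes. Between WT DETCs and WT KCs, limma called 14 members higher and 16 lower in DETCs (adjusted p under 0.05), beside 41.0% and 35.1% of all tested genes. Between LC-/- DETCs and LC-/- KCs, which share no library with the WT contrast, it called 14 higher and 14 lower, beside 38.1% and 32.1% of all tested genes. In both genotypes 14 members were called higher and 13 lower, and 0 were called in opposite directions. The median log2 difference of the 37 members was -0.20 in WT and -0.03 in LC-/-, and that of all tested genes was 0.07 and 0.08. These shares of members were near the background, so the list as a whole was not set apart by its number of calls.

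**Figure D1:**
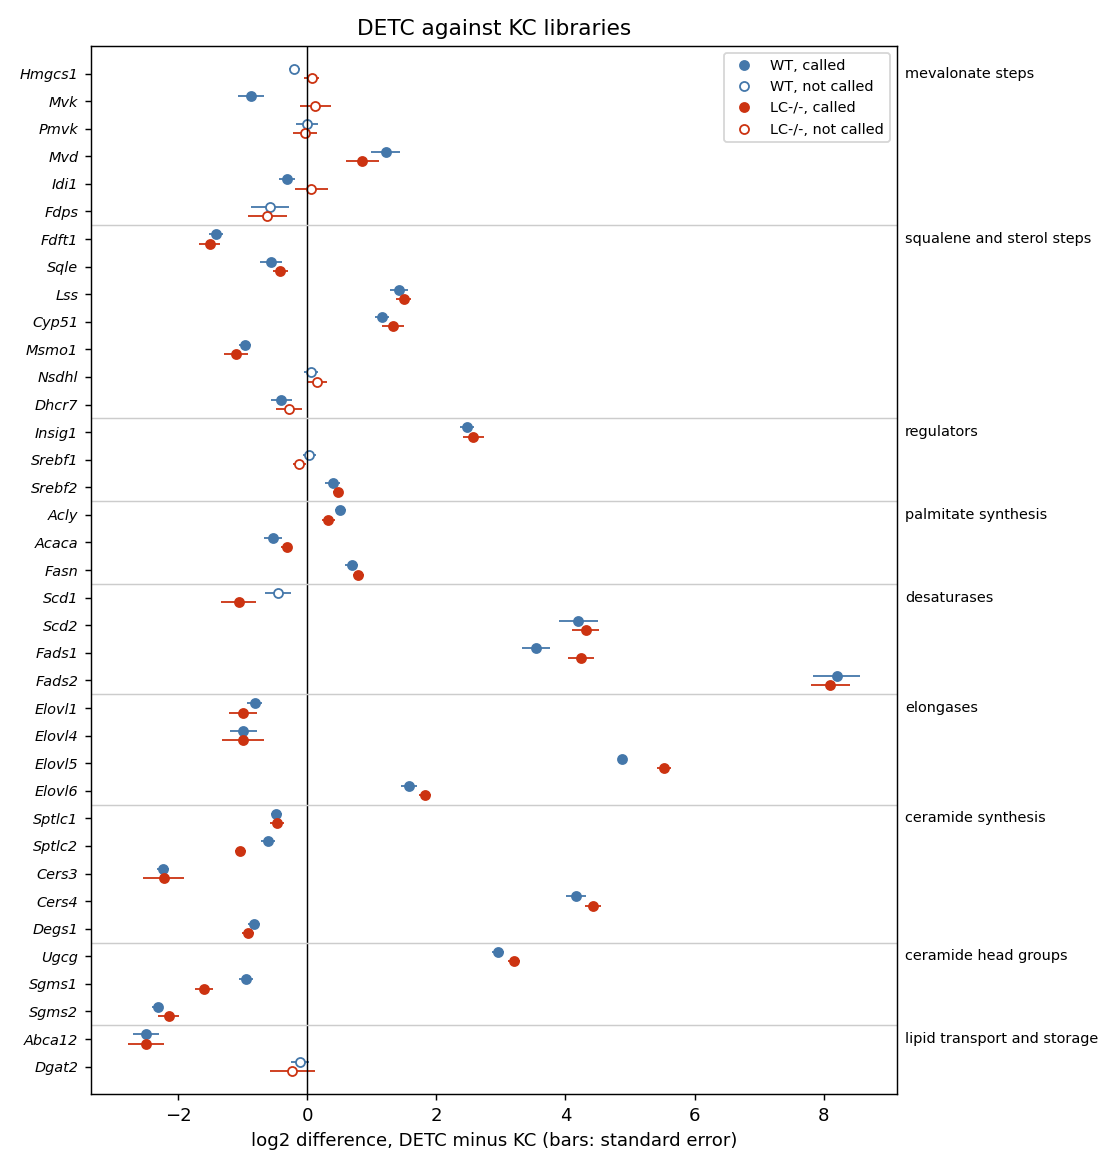
Log2 difference of the normalized count between DETC and KC libraries (horizontal axis, DETC minus KC) for the 37 tested members, grouped by role, with WT in blue and LC-/- in red. Points are estimates with their standard errors, filled where limma called the difference. Fads2, Elovl5, Scd2, Cers4 and Fads1 lie farthest to the right in both genotypes, and Abca12, Sgms2 and Cers3 farthest to the left.

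Genes of polyunsaturated fatty acid synthesis were higher in DETCs. Fads2, the delta-6 desaturase, had normalized counts of 0 (W1), 0.928 (W2) and 1.73 (W3) in WT KCs and of 444 (W1), 648 (W2) and 463 (W3) in WT DETCs. WT KCs held 3 reads of it in all, so that it passed the filter through DETCs alone, and the DETC mean was 585 times the KC mean (95% counting interval 200 to 2838). In LC-/- mice 4 KC reads gave a ratio of 458 (179 to 1682). Fads1, the delta-5 desaturase, had 33.8 (W1), 27.8 (W2) and 53.6 (W3) in WT KCs and 406 (W1), 470 (W2) and 452 (W3) in WT DETCs. It was 3.54 ± 0.22 (SE) higher on the log2 scale in WT DETCs (limma adjusted p = 3.62e-07) and 4.24 ± 0.21 higher in LC-/- DETCs (limma adjusted p = 7.53e-06).

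Elovl5, the elongase that acts between these desaturases, had normalized counts of 7779 (W1), 8567 (W2), 8413 (W3), 13539 (L2) and 11843 (L3) in DETCs. In KCs it had 289 (W1), 280 (W2), 270 (W3), 299 (L1), 254 (L2) and 272 (L3). The groups were far apart, with a log2 difference of 4.88 ± 0.07 in WT (limma adjusted p = 5.44e-11) and 5.52 ± 0.11 in LC-/- (limma adjusted p = 6.1e-07). Per kilobase of exon, Elovl5 had the highest level of the members in both DETC groups, at 2343 normalized counts per kb in WT and 3603 in LC-/-, and in WT KCs its level was 79.4 per kb.

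The monounsaturated fatty acid step split between paralogs. Scd1 and Scd2 are stearoyl-CoA desaturases of the same activity. Scd2 had 147 (W1), 426 (W2) and 219 (W3) in WT KCs and 4145 (W1), 5010 (W2) and 4149 (W3) in WT DETCs. It was 4.20 ± 0.31 higher in WT DETCs than in WT KCs on the log2 scale (limma adjusted p = 1.18e-06) and 4.31 ± 0.21 higher in LC-/- DETCs. Scd1 went the other way, with a log2 difference of -1.06 ± 0.27 in LC-/- (limma adjusted p = 0.0115) and -0.45 ± 0.20 in WT, which was not called (limma adjusted p = 0.0721). The DETC libraries of Scd1 gave 1349 (W1), 2000 (W2), 2583 (W3), 1713 (L2) and 869 (L3). They were highest and lowest in the 2 DETC libraries with the highest and lowest sums of the 10 sebaceous gland markers, 445 in W3 and 82.9 in L3. The libraries between did not follow the order of these sums, which were 190 in W1, 158 in W2 and 143 in L2. Only 3 of these 10 markers passed the filter, and 2 were at 0 in all libraries of each DETC group. The list of these markers includes genes of sebocyte lipid synthesis, and their part in the Scd1 values was not tested.

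Elongases and ceramide synthases were divided in the same manner. Elovl6, which extends palmitate, was 1.57 ± 0.12 higher in WT DETCs on the log2 scale. Elovl1 and Elovl4, the elongases of very long and ultra-long chains, were lower in DETCs, by log2 differences of -0.81 ± 0.12 and -0.99 ± 0.21. Elovl4 had 2036 (W1), 1661 (W2) and 1327 (W3) in WT KCs and 662 (W1), 1150 (W2) and 756 (W3) in WT DETCs, so that the highest DETC library came near the lowest KC library. In LC-/- the 3 genes had log2 differences of 1.83, -0.99 and -1.0, and all were called by limma in both genotypes, although Elovl4 in LC-/- was not called without KC L2, KC L3 or DETC L3 (limma adjusted p up to 0.215). Among ceramide synthases, Cers4, which uses long-chain acyl-CoA, was 4.16 ± 0.16 higher in WT DETCs (limma adjusted p = 1.28e-08), with 153 (W1), 134 (W2) and 173 (W3) in WT KCs and 3565 (W1), 2340 (W2) and 2465 (W3) in WT DETCs. Cers3, the ceramide synthase for ultra-long chains, had 885 (W1), 745 (W2) and 815 (W3) in WT KCs and 171 (W1), 184 (W2) and 161 (W3) in WT DETCs. It was 2.23 ± 0.10 lower in WT DETCs (limma adjusted p = 2.9e-08).

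The remaining ceramide genes were mostly higher in KCs. Sptlc1 and Sptlc2 encode subunits of serine palmitoyltransferase, the first enzyme of the route, and Degs1 encodes the desaturase that completes ceramide. All 3 were called lower in DETCs in both genotypes, with WT log2 differences of -0.48, -0.61 and -0.82. At the head group step the branches parted. Ugcg was 2.96 ± 0.09 higher in WT DETCs (limma adjusted p = 3.4e-09), while Sgms1 was 0.95 ± 0.10 lower and Sgms2 2.32 ± 0.09 lower.

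Along the cholesterol route the direction changed from enzyme to enzyme. Of the 13 members that act as its enzymes, 3 were called higher in WT DETCs and 6 lower, and 3 and 3 in LC-/-. With 41.0% and 35.1% of all tested genes called in WT and 38.1% and 32.1% in LC-/-, these counts do not set the route apart. Lss, which closes the sterol ring, had values of 565 to 642 in WT DETCs and 190 to 280 in WT KCs, a log2 difference of 1.43 ± 0.14. Cyp51, the next demethylase, differed by 1.15 ± 0.11, and Mvd, mevalonate diphosphate decarboxylase, by 1.21 ± 0.23. Fdft1, squalene synthase, was the enzyme farthest in the other direction, at -1.41 ± 0.11, with 324 (W1), 423 (W2) and 414 (W3) in WT DETCs and 959 (W1), 1004 (W2) and 1111 (W3) in WT KCs. Msmo1, the sterol C4-methyl oxidase, differed by -0.96 ± 0.09. Each of these 5 was also called by limma in LC-/-, in the same direction, but Mvd there was called only without KC L2 when 1 library was left out (limma adjusted p up to 0.154). Sqle and Mvk were called lower in WT DETCs at -0.56 ± 0.16 and -0.87 ± 0.19. Sqle was also called in LC-/- (-0.42 ± 0.12), though not without DETC L2 or DETC L3, and Mvk was not (0.12 ± 0.24). Idi1 and Dhcr7, the reductase of the last step, were called lower in WT by 0.31 and 0.40, each in 2 of the 6 fits with 1 library left out (Idi1 without KC W1 or DETC W2, Dhcr7 without KC W3 or DETC W2), and were not called in LC-/-. The 4 others, Hmgcs1, Pmvk, Fdps and Nsdhl, were called in neither genotype.

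The SREBP regulators showed one large difference. Insig1, which holds the SREBP complex in the endoplasmic reticulum, had values of 2139 (W1), 2844 (W2) and 2671 (W3) in WT DETCs and 431 (W1), 458 (W2) and 475 (W3) in WT KCs. The groups did not overlap and the log2 difference was 2.48 ± 0.11 (limma adjusted p = 2.56e-08), with 2.58 ± 0.17 in LC-/-. Srebf2, which encodes SREBP2, was 0.40 ± 0.11 higher in WT DETCs (limma adjusted p = 0.00965), but with libraries scaled to their total reads the difference was 0.18 (limma adjusted p = 0.105). Srebf1 was called in neither genotype.

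The first steps of fatty acid synthesis differed less. Acly, which makes cytosolic acetyl-CoA, and Fasn, fatty acid synthase, were called higher in WT DETCs by 0.52 and 0.69 on the log2 scale, and Acaca, acetyl-CoA carboxylase, lower by 0.53. The same calls were made in LC-/-, where the difference of Acly, 0.33, shrank to 0.04 with libraries scaled to their total reads and was not called without KC L1, DETC L2 or DETC L3 (limma adjusted p up to 0.143). Dgat2, which makes triglyceride, was called in neither genotype.

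Keratinocyte markers moved with some of these values, and their part in the population differences was not tested. The keratinocyte share multiplied by the KC mean gave at least 50% of the DETC value in every DETC library for 3 members, Cers3, Sgms2 and Abca12. For Sgms2 this was 77.5% to 95.9%, for Cers3 69.7% to 113% and for Abca12 63.9% to 130%, so that the amount exceeded the whole value in some libraries. For 10 members it gave under 10% in every DETC library, and these were Fads1, Fads2, Elovl5, Elovl6, Scd2, Cers4, Ugcg, Insig1, Lss and Cyp51. Other members lay between, and some called lower in DETCs had large parts. These were 38.1% to 59.2% for Fdft1, 30.6% to 63.3% for Sgms1 and 28.5% to 44.6% for Msmo1. Degs1 had 25.9% to 44.2%, Elovl4 22.9% to 47.9%, Elovl1 22.9% to 40.8% and Sptlc2 22.4% to 48.0%. Abca12 was 2.49 ± 0.21 lower in WT DETCs than in WT KCs, and its DETC values of 407 (W1), 804 (W2), 583 (W3), 1164 (L2) and 564 (L3) were highest in L2 and W2. The 10 suprabasal keratinocyte markers summed to 44758 in L2 and 43729 in W2, and to 16047 to 24470 in the other 3. In KCs they summed to 91256 to 137962 in WT and 83486 to 121159 in LC-/-. A single share per library was used for all members, and parts by epidermal layer were not computed. With the keratinocyte share subtracted, limma called 13 members higher and 18 lower in WT DETCs, beside 34.7% and 42.7% of all tested genes. In LC-/- it called 12 and 17, beside 31.3% and 40.8%. The median log2 difference of the members was then -0.50 in WT and -0.36 in LC-/-, and that of all tested genes -0.17 and -0.22.

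**Figure D2:**
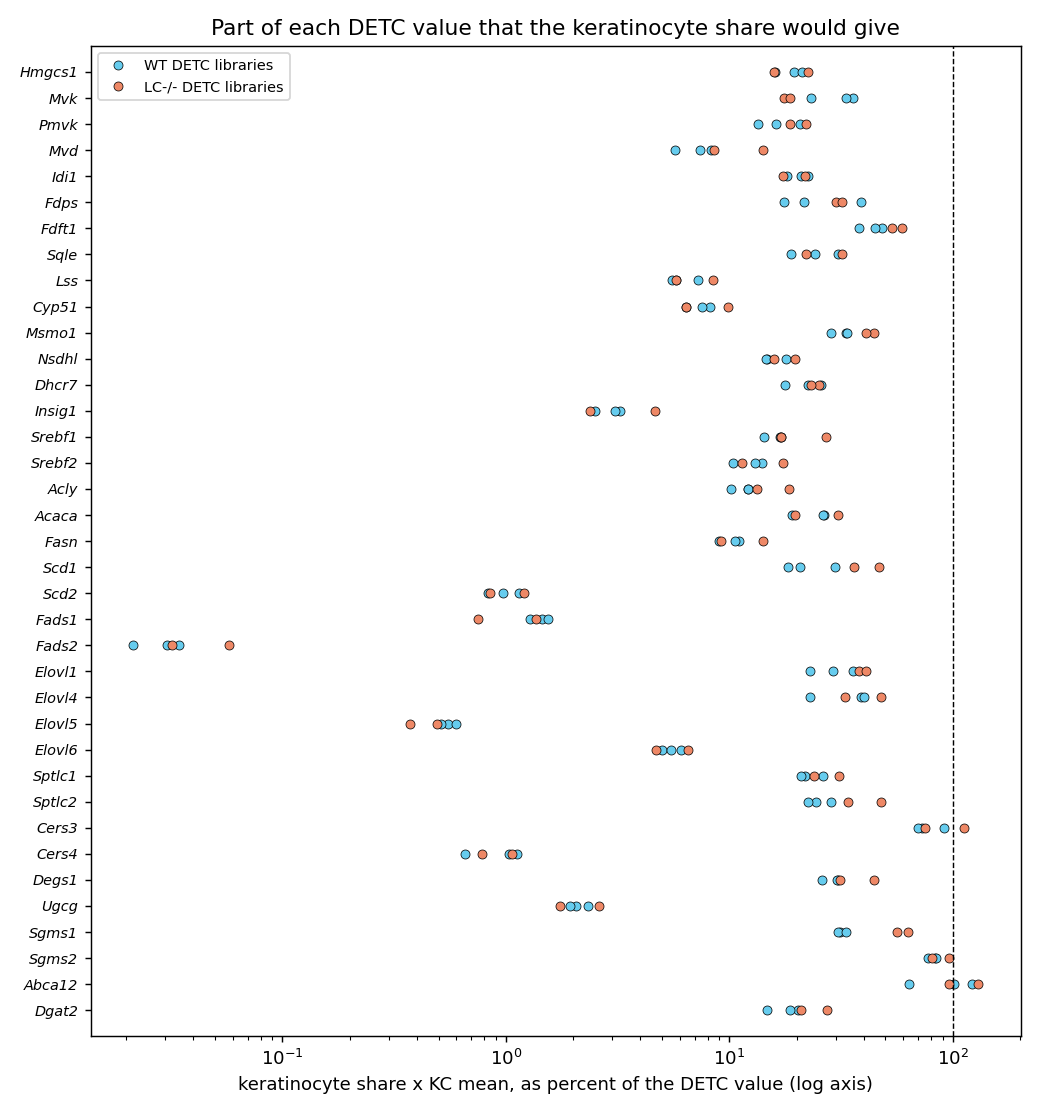
The keratinocyte share of a DETC library times the mean KC value of the same genotype, as a percentage of the gene's value in that DETC library (horizontal log axis), for the 37 tested members. Each point is 1 DETC library, blue for WT and orange for LC-/-, and the dashed line is 100%. Abca12, Cers3 and Sgms2 lie nearest the line and Fads2 lies below 0.1%.

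The comparison of genotypes asked how each population differed when it had developed without LCs. In KCs limma called 4 members higher in LC-/- and 0 lower (12 and 1 at an unadjusted p under 0.05), beside 5.37% and 1.85% of all tested genes, while 12 and 2 members had genotypes that did not overlap, beside 16.6% and 14.9%. In DETCs it called 3 higher and 0 lower (10 and 1 at an unadjusted p under 0.05), beside 3.13% and 0.430%, while 12 and 1 did not overlap, beside 21.3% and 16.5%. The median log2 difference of the members was 0.15 in KCs and 0.18 in DETCs, where all tested genes had -0.01 and 0.02. These medians moved with single libraries. The KC median was 0.09 without W1, 0.10 without L3 and 0.23 without W2. The DETC median was 0.07 without L2, the library with the highest keratinocyte share, 0.12 without W1, 0.28 without L3, and 0.07 with the share subtracted. Without L2 the members at an unadjusted p under 0.05 were 4 higher and 5 lower. With libraries scaled to their total reads the medians of all tested genes shifted to -0.15 and -0.18, and those of the members to 0.02 and -0.02. The labels do not say what separated the replicates, and p-values measure only the spread between these libraries. In KCs limma called fewer genes than edgeR or DESeq2, so that a KC difference it did not call may still be one that the other tools call. The same held on simulated counts with known changes. Those counts gave every gene the same spread beyond counting error, so they cannot show which tool is nearer the truth in these libraries.

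**Figure D3:**
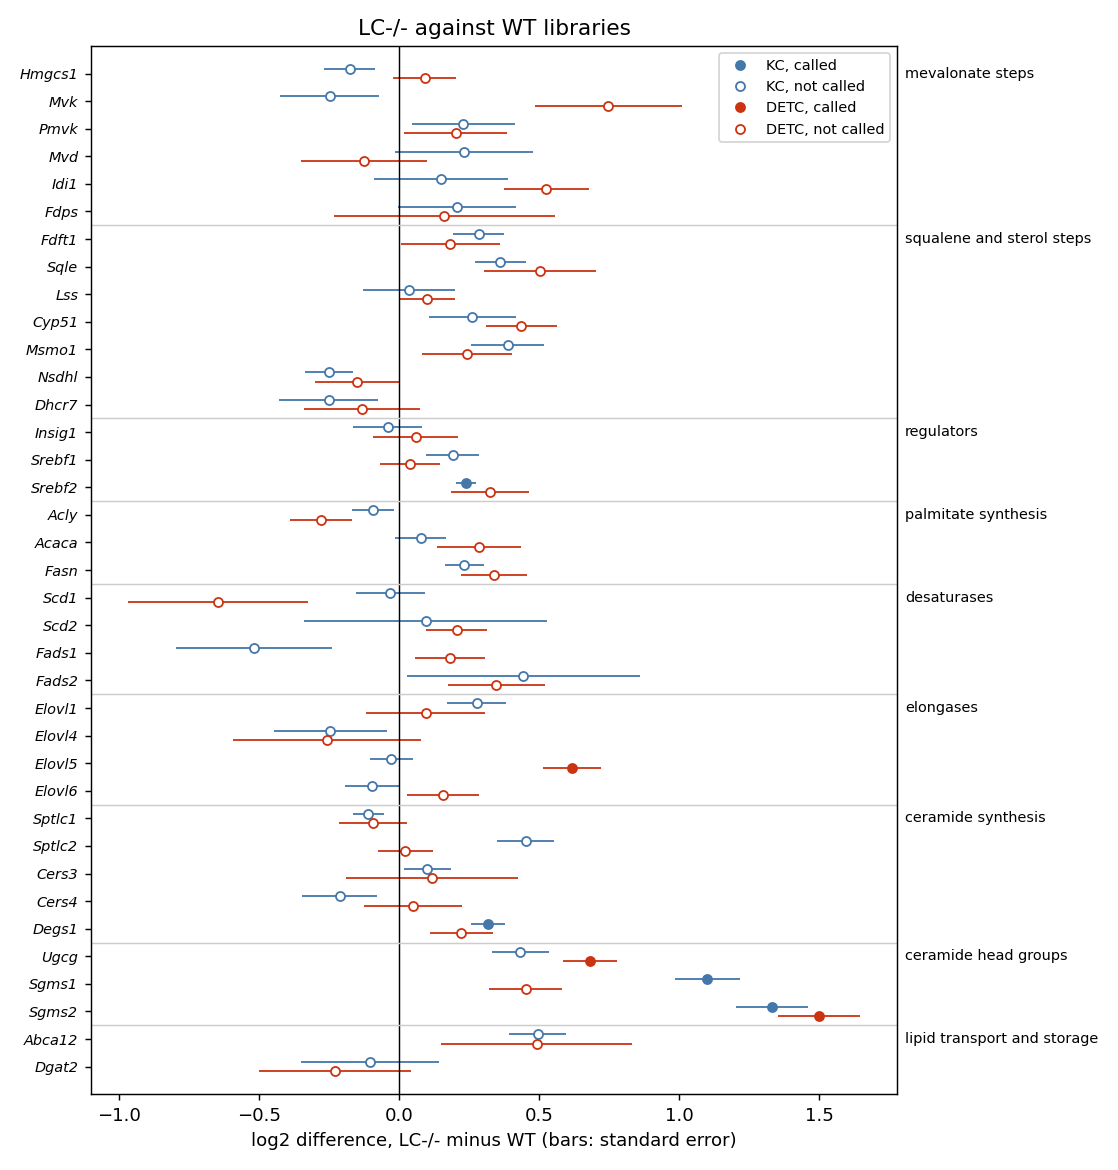
Log2 difference of the normalized count between LC-/- and WT libraries (horizontal axis, LC-/- minus WT) for the 37 tested members, with KCs in blue and DETCs in red. Points are estimates with their standard errors, filled where limma called the difference. The called members are Sgms1, Sgms2, Degs1 and Srebf2 in KCs and Sgms2, Ugcg and Elovl5 in DETCs, all to the right of 0.

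The promoters of 4 members are shown, chosen after values and matches were seen. Sgms1 and Sgms2 had the largest called genotype differences, Elovl5 the called interaction, and Hmgcs1 the only sterol regulatory element found. Of the other members called between genotypes, Ugcg and Degs1 had none of the 3 motifs and Srebf2 had the NF-Y box. Each is the 250 bases before a RefSeq transcription start on GRCm38.p6, written 5′ to 3′ on the strand of the gene. Capitals mark the sterol regulatory element core TCACNCCAC, the NF-Y box CCAAT and the AP-1 site TGANTCA, searched on both strands. Sgms1 and Sgms2 have several annotated starts, the one shown being a start with an AP-1 match where most others have none, and gene counts do not show which start was used. They lie at chr19:32211014-32211263 (minus strand), chr3:131490231-131490480 (minus), chr9:77917115-77917364 (plus) and chr13:119690101-119690350 (plus).
Sgms1: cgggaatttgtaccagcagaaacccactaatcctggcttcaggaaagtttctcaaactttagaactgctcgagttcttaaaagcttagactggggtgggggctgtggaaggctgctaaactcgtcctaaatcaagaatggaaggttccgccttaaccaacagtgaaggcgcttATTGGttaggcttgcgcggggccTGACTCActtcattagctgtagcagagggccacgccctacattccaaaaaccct
Sgms2: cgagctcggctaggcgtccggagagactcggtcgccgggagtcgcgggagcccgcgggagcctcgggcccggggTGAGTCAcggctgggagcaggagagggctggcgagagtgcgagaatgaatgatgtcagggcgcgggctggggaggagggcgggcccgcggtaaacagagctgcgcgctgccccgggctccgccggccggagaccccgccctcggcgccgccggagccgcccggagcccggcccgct
Elovl5: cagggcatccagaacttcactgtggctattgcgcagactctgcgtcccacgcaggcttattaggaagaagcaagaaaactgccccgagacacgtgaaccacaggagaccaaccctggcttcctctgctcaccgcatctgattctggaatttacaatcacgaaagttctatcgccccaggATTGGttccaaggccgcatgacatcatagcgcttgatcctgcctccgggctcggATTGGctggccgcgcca
Hmgcs1: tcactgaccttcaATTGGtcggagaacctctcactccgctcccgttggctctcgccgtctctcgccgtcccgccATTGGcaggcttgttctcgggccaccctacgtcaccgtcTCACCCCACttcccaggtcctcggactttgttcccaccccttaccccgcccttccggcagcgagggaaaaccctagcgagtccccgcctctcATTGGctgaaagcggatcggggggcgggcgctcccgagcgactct

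Promoters were found for 30 of the 38 members. Counting every annotated start, these genes had 44 promoters. The AP-1 site stood in 5 of the 44, those of Sgms1, Sgms2, Dhcr7 and Msmo1, and in 6.75% of the 32851 promoters searched. The NF-Y box stood in 22 of the 44 and in 33.9% of all promoters. The sterol element core stood in 1 of the 44, that of Hmgcs1, and in 1.05% of all promoters. Hmgcs1, HMG-CoA synthase, is a textbook target of SREBP2, and it differed between genotypes by -0.17 ± 0.09 in KCs and 0.09 ± 0.11 in DETCs, neither of which limma called. The matches describe letters in these windows and say nothing of binding.

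The sphingomyelin synthases carried the largest genotype differences. Sgms2, the form found at the plasma membrane, had values of 918 (W1), 889 (W2) and 1014 (W3) in WT KCs and 2436 (L1), 1993 (L2) and 2732 (L3) in LC-/- KCs. Every LC-/- KC library lay above every WT one, with a log2 difference of 1.33 ± 0.13 (limma adjusted p = 0.0193). Sgms1, the Golgi form, had 3112 (W1), 3053 (W2) and 3968 (W3) in WT KCs and 7245 (L1), 6774 (L2) and 7599 (L3) in LC-/- KCs, a log2 difference of 1.10 ± 0.12 (limma adjusted p = 0.0194). The groups were again apart. With 1 KC library left out, both genes were called without W3 or L2 and not without W1, W2, L1 or L3, with adjusted p up to 0.0806 for Sgms2 and 0.0814 for Sgms1 and log2 differences of at least 1.23 and 1.03. On the recovered reads edgeR gave adjusted p-values of 3.49e-05 and 4.55e-05.

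In DETCs Sgms2 had values of 186 (W1), 177 (W2) and 201 (W3) in WT and 605 (L2) and 471 (L3) in LC-/-. Both LC-/- libraries lay above all WT libraries, with a log2 difference of 1.50 ± 0.15 (limma adjusted p = 0.00832). As given above, most of each DETC value of Sgms2 was the amount that the keratinocyte share would bring. After that amount was subtracted the difference was 0.49 (limma adjusted p = 0.742). The DETC values of Sgms1 were 1652 (W1), 1739 (W2), 1829 (W3), 2767 (L2) and 2050 (L3), and its log2 difference of 0.45 ± 0.13 was not called (limma adjusted p = 0.108). After subtraction it was -0.31. The interaction of genotype and population was not called for Sgms2 (0.17 ± 0.19) or Sgms1 (-0.65 ± 0.18, limma adjusted p = 0.157), and with the share subtracted that of Sgms1 was called at -1.41 (limma adjusted p = 0.00359).

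**Figure D4:**
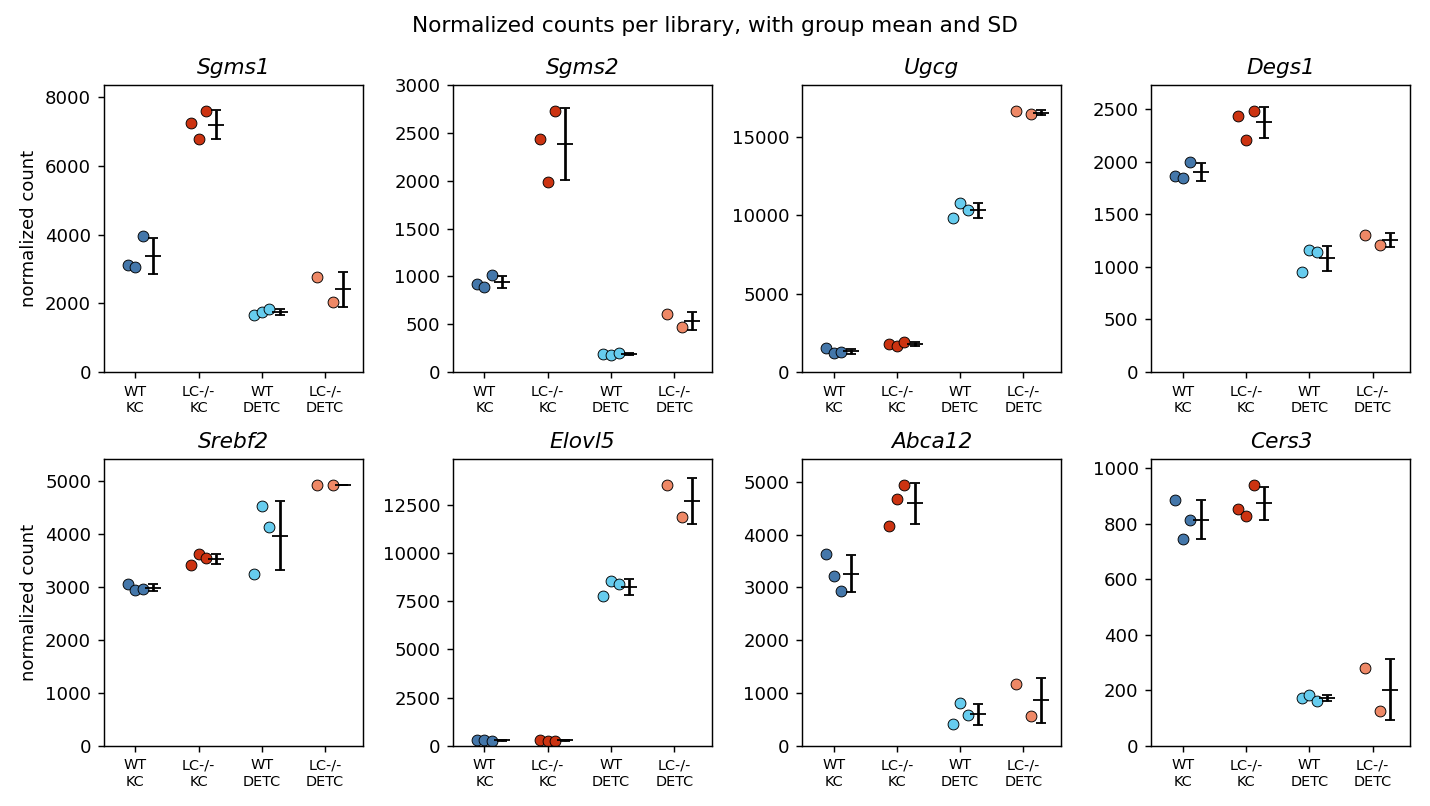
Normalized counts (vertical axes, linear and from 0) of 8 members in each library, by genotype and population, with the mean and SD of each group beside the points. Sgms1 and Sgms2 stand higher in the LC-/- than in the WT KC libraries, and Ugcg and Elovl5 higher in the 2 LC-/- than in the 3 WT DETC libraries.

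Ugcg and Elovl5 were the called members for which the keratinocyte share came to under 10% of the DETC values. In DETCs Ugcg stood at 9845 (W1), 10777 (W2) and 10308 (W3) in WT and at 16641 (L2) and 16449 (L3) in LC-/-. The LC-/- libraries lay well above the WT ones, by a log2 difference of 0.68 ± 0.10 (limma adjusted p = 0.0168). Its KC values were 1514 (W1), 1229 (W2), 1248 (W3), 1769 (L1), 1673 (L2) and 1932 (L3), which did not overlap and differed by 0.43 ± 0.10 (limma adjusted p = 0.0682). The DETC values of Elovl5 given above differed by 0.62 ± 0.10 (limma adjusted p = 0.0257), and its KC values by -0.03 ± 0.08. Elovl5 was the only member with a called interaction of genotype and population, 0.64 ± 0.12 (limma adjusted p = 0.0319), beside 0.798% of all tested genes. In DETCs both genes were called without W1 or L3 and not without W2, W3 or L2, with adjusted p up to 0.105 for Ugcg and 0.166 for Elovl5. With the share subtracted the differences were 0.68 and 0.62, with limma adjusted p-values of 0.0950 and 0.120, and that fit called 0 of all tested genes, with 1200 higher and 1146 lower where p was not adjusted and lay under 0.05.

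Degs1 and Srebf2 had small differences in KCs. Degs1 was 1867 (W1), 1848 (W2) and 2000 (W3) in WT and 2437 (L1), 2210 (L2) and 2483 (L3) in LC-/-, a log2 difference of 0.32 ± 0.06 (limma adjusted p = 0.0442). Srebf2 was 3055 (W1), 2950 (W2) and 2951 (W3) in WT and 3413 (L1), 3612 (L2) and 3552 (L3) in LC-/-, a log2 difference of 0.24 ± 0.04 (limma adjusted p = 0.0280). Neither gene overlapped between genotypes. Both were called without L2 and not without any of the other 5 KC libraries, and neither was called with libraries scaled to their total reads, where the differences were 0.19 and 0.11. In DETCs they differed by 0.22 ± 0.11 and 0.33 ± 0.14, which limma did not call.

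Abca12, Sptlc2 and Ugcg, other ceramide and barrier genes, had higher values in LC-/- KCs but were not called by limma. Their adjusted p-values lay just outside the threshold. Abca12 was 3628 (W1), 3215 (W2) and 2940 (W3) in WT KCs and 4168 (L1), 4664 (L2) and 4942 (L3) in LC-/- KCs, a log2 difference of 0.50 ± 0.10 (limma adjusted p = 0.0523). Sptlc2 differed by 0.45 ± 0.10 (limma adjusted p = 0.0641). For both, and for Ugcg, edgeR gave adjusted p-values of 0.00433, 0.00723 and 0.00934 in that order. Over the KC libraries edgeR called 9 members higher and DESeq2 10, and both called 0 lower, beside 8.27% and 8.36% of all tested genes called higher. Cers3, the acyl-chain partner of this route, differed by 0.10 ± 0.08. Sptlc1 went the other way without overlap, at 474 to 534 in WT KCs and 457 to 468 in LC-/- KCs. Among further genes outside the members, 4 of 11 tested for other sphingolipid synthesis lay above 0 in KCs and 7 below. For acylceramide and barrier lipid processing 6 of 13 lay above 0 and 7 below.

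Limma called 0 of the 13 cholesterol enzymes in either genotype comparison. At an unadjusted p under 0.05 KCs had 3 of them higher and 1 lower, while DETCs had 4 higher and 0 lower, where all 14419 tested genes had 2116 and 1683 in KCs and 1882 and 893 in DETCs. By edgeR 2 were called higher in KCs and 0 in DETCs, and by DESeq2 3 in KCs and 1 in DETCs, beside 8.27% and 2.84% of all tested genes by edgeR and 8.36% and 6.79% by DESeq2. Their median log2 difference was 0.21 in KCs, with 9 of 13 above 0, and 0.18 in DETCs, with 10 of 13 above 0. In KCs Sqle, squalene epoxidase, differed by 0.36 ± 0.09 (limma adjusted p = 0.0774) and Msmo1 by 0.39 ± 0.13 (limma adjusted p = 0.135), and both were called by edgeR and by DESeq2. In DETCs 3 uncalled members differed by at least 0.5 on the log2 scale without overlap. They were Mvk, mevalonate kinase, at 0.75 ± 0.26, Idi1, isopentenyl diphosphate isomerase, at 0.53 ± 0.15, and Sqle at 0.50 ± 0.20, with limma adjusted p-values of 0.171, 0.109 and 0.227. In DETCs Idi1 was 169 (W1), 201 (W2), 186 (W3), 294 (L2) and 242 (L3), and both LC-/- libraries lay above the WT ones. For Sqle the DETC libraries held 350 (W1), 583 (W2), 526 (W3), 690 (L2) and 659 (L3), a narrower gap. Mvk in DETCs was 96.0 (W1), 152 (W2), 122 (W3), 259 (L2) and 160 (L3), so that the lower LC-/- library lay close to the highest WT one.

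Of the 10 tested fatty acid members other than Elovl5, limma, edgeR and DESeq2 called 0 between genotypes. At an unadjusted p under 0.05 limma had 2 higher in KCs. The DETC comparison had 1 of each direction at that p. With 5.37% of all tested genes called higher in KCs and 3.13% in DETCs, 0 of 10 is near the background. Fasn differed by 0.23 ± 0.07 in KCs and 0.34 ± 0.12 in DETCs. Scd1 in DETCs, at -0.65 ± 0.32, overlapped between genotypes. Elovl3, which was not tested, had normalized counts of 0.864 to 13.2 in KCs and 0 to 28.2 in DETCs. Its highest value was in W3, the DETC library with the highest sum of the sebaceous gland markers, few of which passed the filter.

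Other genes of these routes were taken from 83 genes in 7 lists, of which 75 were tested. In KCs 2 were called higher in LC-/- and 2 lower, and in DETCs 2 higher and 0 lower, beside 5.37% and 1.85% of all tested genes in KCs and 3.13% and 0.430% in DETCs. Aloxe3, a lipoxygenase that acts on the acylceramides of the barrier, was 1.10 ± 0.07 higher in LC-/- KCs (limma adjusted p = 0.0142), and Acsl4, which activates arachidonic acid, was 0.46 ± 0.09 higher in LC-/- DETCs (limma adjusted p = 0.0333). Mylip, a ubiquitin ligase and target of LXR, differed by -0.47 ± 0.08 in KCs (limma adjusted p = 0.0381), and Scd3 was called lower there at a level of at most 11.1 normalized counts. With 1 library left out, Aloxe3 was called without W3, L2 or L3 only, Acsl4 without W1 only, Mylip without W3 only, and Scd3 in no such fit. The adjusted p-values reached 0.0761 for Aloxe3, 0.129 for Acsl4, 0.124 for Mylip and 0.122 for Scd3.

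Between the populations 33 of the 75 were called higher in WT DETCs and 27 lower, and 30 and 25 in LC-/-, beside 41.0% and 35.1% of all tested genes in WT and 38.1% and 32.1% in LC-/-, so that these genes as a whole were near the background. By list, the higher and lower calls in WT were 6 and 1 of 10 for other cholesterol synthesis, 3 and 4 of 9 for SREBP control and sterol uptake, 4 and 2 of 6 for sterol efflux, 5 and 8 of 17 for other fatty acid synthesis, 6 and 4 of 11 for other sphingolipid synthesis, 2 and 7 of 13 for acylceramide and barrier lipid processing, and 7 and 1 of 9 for triglyceride and wax synthesis. Fads3, a further member of the FADS family, was at 2312 to 2538 in WT DETCs and 4.64 to 9.22 in WT KCs. These WT KC values lay below a CPM of 1, so that among the WT libraries Fads3 met the filter in DETCs alone. Soat1 and Dgat1, which store cholesterol ester and triglyceride, were 5.19 and 3.94 higher in WT DETCs on the log2 scale, and Cers2 2.89 higher. Elovl7, an elongase, was 2.79 lower in WT DETCs.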

How the data were processed

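RNA of sorted KCs and DETCs was sequenced as paired-end reads in 11 libraries. After trimming (cutadapt) and alignment to GRCm38 (hisat2), the authors counted per gene with featureCounts and deposited a signal per gene, the count divided by a median-of-ratios size factor of DESeq2. Groups were taken from the labels. KC and DETC libraries share replicate numbers, and whether these mark the same mouse is not given in the sources used here, so the main fits had no block. Dividing each value by the smallest step of its library gave whole reads for 100% of values within 0.002, and these recovered counts were used for DESeq2 1.42.0 and edgeR 4.0.16 as alternatives. The main test was limma 3.58.1 (eBayes with trend, R 4.3.3) on log2(normalized count + 1) with Benjamini-Hochberg adjustment over all 14419 tested genes, so log2 differences understate changes of low genes. The filter was a CPM above 1 in at least 2 libraries. Positions and exon lengths came from GENCODE M21, which matched 52403 identifiers, and promoters from RefSeq. Tests were checked on simulated counts that gave every gene the same spread beyond counting error, which real libraries need not have. There limma found fewer of the changed genes than edgeR and DESeq2 in the KC genotype comparison and in the interaction. The members, gene lists, marker lists and motifs were chosen with earlier results of these data known. All 38 members were accounted for by role. Values per library were given for members called between genotypes or in the interaction, for the 5 largest called population differences in each direction in WT, and for uncalled members whose genotypes did not overlap and differed by at least 0.5 on the log2 scale. Pathway genes were named where called, up to 5 per list and comparison, and of the population differences only some are printed. Values per library of Insig1, Scd1, Lss and Abca12 were added after they were seen. Some genes counted in the pathway lists are not reported here by name. Alternatives changed the pseudocount, filter, scaling, trend, tool, libraries fitted and keratinocyte share, and left out each replicate. Depth leaves genes of a few reads, such as Fads2 and Scd3 in KCs, imprecise, and intervals cover counting error only.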

Additional observations from a re-analysis of the deposited data

Results flagged for a closer look

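Elovl5 was flagged because its genotype effect differed between the populations by a test of the difference itself. The log2 difference between LC-/- and WT was 0.62 ± 0.10 in DETCs and -0.03 ± 0.08 in KCs, so that the interaction was 0.64 ± 0.12 (limma adjusted p = 0.0319 over all tested genes). Both LC-/- DETC libraries (13539 and 11843 normalized counts) lay above the 3 WT ones (7779 to 8567). With 1 library left out the interaction lay between 0.55 and 0.74 and was called without KC L1, KC L2 or DETC L3, and not without any of the other 8, with limma adjusted p-values of 0.0366 to 0.136 over the 11 fits. The groups of 2 and 3 libraries were too small to look for single outlying libraries.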

How the results depend on the processing

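Members called higher in LC-/- KCs numbered 4, and 8 without a filter, 9 with a minimum mean of 10, 2 under quantile normalization, 2 under scaling to total reads, 2 without trend, 9 with edgeR and 10 with DESeq2. With 1 KC library left out they numbered 0 (W1, W2, L1 or L3), 2 (W3) and 5 (L2). Scaling to total reads called 1 member lower in KCs (Nsdhl) and 1 lower in DETCs (Acly). Members called higher in LC-/- DETCs numbered 3, and 0 without trend (6 at an unadjusted p under 0.05), 0 with the keratinocyte share subtracted (4 at an unadjusted p under 0.05) and 5 with DESeq2. With 1 DETC library left out they numbered 1 (W2, W3 or L2), 3 (W1) and 4 (L3). A fit left with 1 LC-/- DETC library assumes that it varies like the other group. Members with a called higher interaction numbered 1, and 0 without a filter, under quantile normalization and without trend, and 0 to 1 with 1 library left out. With the share subtracted 2 interactions were called lower (Sgms1 and Sptlc2).

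Over all tested genes in KCs, limma called 775 higher and 267 lower. The higher calls were 1165 with a minimum mean of 10, 419 under quantile normalization, 354 under scaling to total reads, 508 without trend, 1192 with edgeR and 1205 with DESeq2, and 5 to 552 with 1 library left out. The lower calls were 536 without a filter, 575 with a minimum mean of 10, 949 under scaling to total reads, 591 with edgeR and 552 with DESeq2, and 0 to 169 with 1 library left out. In DETCs limma called 452 higher and 62 lower. The higher calls were 178 under quantile normalization, 216 under scaling to total reads, 979 with DESeq2, 834 in the fit over all 11 libraries, and 29 to 478 with 1 library left out. The lower calls were 537, 167 and 125 under scaling to total reads, DESeq2 and the fit over all libraries, and 0 to 112 with 1 library left out. Without trend and with the share subtracted both were 0, where an unadjusted p under 0.05 was reached by 1554 higher and 853 lower genes without trend and by 1200 and 1146 with the share subtracted. Called interactions were 89 higher and 26 lower. The higher ones were 19 without trend, 231 with DESeq2 and 150 with the share subtracted, and 25 to 117 with 1 library left out. The lower ones were 17 without a filter, 48 under quantile normalization, 43 under scaling to total reads, 3 without trend, 73 with DESeq2 and 171 with the share subtracted, and 3 to 29 with 1 library left out.

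The counts of calls between populations stayed within 1.5 times under every alternative run. Quantile normalization turned Srebf1 in WT (-0.23) and Hmgcs1 in LC-/- (-0.28) to called lower values. Of 3551 single-member values under alternatives 177 changed sign, 175 of them where neither value was called. Replicate numbers shared by a KC and a DETC library were not taken to pair them, since the sources used here do not say what they mark. Correlations of deviations from group means were -0.06, 0.07, 0.12, 0.16 and 0.13 for W1, W2, W3, L2 and L3. With groups of 2 or 3 libraries these correlations cannot decide whether a shared number marks the same mouse. With the number as a replicate block, limma called 14 members higher and 16 lower between WT populations, 12 and 13 between LC-/- populations (Mvd, Acly and Acaca were no longer called, at limma adjusted p-values of 0.0530, 0.124 and 0.0572) and 1 and 0 for the interaction, and 5858 and 5015, 5141 and 4210, and 101 and 31 of all genes. The cause of these shifts was not tested.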
